A study of Mus musculus with 20 samples.

Results

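The chromatin of 10 Sox genes was described by the histone marks over them and by the sites of the E protein HEB around them in a mouse mammary epithelial cell line. They were Sox1, Sox2, Sox4, Sox7, Sox9, Sox10, Sox11, Sox12, Sox17 and Sox18, 10 of the 20 Sox family genes looked up and of the 21887 protein-coding genes placed on a chromosome. For each gene, peaks of H3K4me3, H3K27ac and H3K27me3 were taken over the gene and 1 kb beyond each end, here called its window, H3K27ac peaks were also taken within 100 kb, and HEB sites within 100 kb. The genes are named from RefSeq positions of GRCm38.p6, the assembly behind the mm10 build of the peak lists.

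Chromatin immunoprecipitation with sequencing was done in Comma-Dbeta (Comma-Dβ) cells at passage 28, with 4 samples for each of HEB, H3K4me3, H3K27ac and H3K27me3 and 4 of input chromatin. All cells came from this line and were grown alike. The DMEM/F12 medium held insulin at 0.125 IU/mL, epidermal growth factor at 5 ng/mL, HEPES at 10 mM and serum at 2%, and the labels name no treatment or genotype. The data were 1 peak list per antibody. No value per sample was at hand, so no spread between replicates and no test of a difference could be given, and the depth of the libraries is unknown. Every fold below is the authors' fold enrichment for a single peak, read here as ChIP over a control that was not stated. A fold ranks peaks within its own list only.

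Sox proteins bind DNA through an HMG box and bend it, and they specify many lineages in the embryo. Sox1 and Sox2 (group B1) act in neural progenitors, and Sox2 also in pluripotent cells. Sox4, Sox11 and Sox12 form group C, which is active in many progenitor tissues. Sox9 and Sox10 belong to group E, with Sox9 known for cartilage, gonad and epithelial progenitors and Sox10 for neural crest and glia, and both have been studied in mammary stem and progenitor cells. Sox7, Sox17 and Sox18 (group F) act in endothelium, and Sox17 also in endoderm. H3K4me3 marks promoters, H3K27ac marks active promoters and enhancers, and H3K27me3 is the mark of Polycomb repression.

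The line's labelled cell type was checked on fixed markers. All 8 epithelial markers, among them Krt5, Krt14, Krt8 and Epcam, carried both H3K4me3 and H3K27ac, and 4 of them also carried H3K27me3. Both active marks lay as well at the 3 fibroblast markers, at Pecam1 of the 4 endothelial markers, and at Cd68 and Ptprc of the 3 immune markers, while H3K27ac without H3K4me3 lay at Tek and at the neural marker Rbfox3. The check thus did not separate the epithelial from the fibroblast markers. The H3K4me3 list held 17162 peaks, the H3K27ac list 61496, the H3K27me3 list 114660 and the HEB list 956 sites.

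The 10 genes fell into 4 chromatin states. Sox4 and Sox9 carried H3K4me3 and H3K27ac without H3K27me3. Sox2, Sox11 and Sox12 carried all 3 marks in their windows, Sox7 carried H3K4me3 with H3K27me3, and Sox1, Sox10, Sox17 and Sox18 carried H3K27me3 alone. H3K27me3 was therefore present at 8 of the 10 genes, beside 37.5% of all protein-coding genes. H3K4me3 was present at 6, beside 61.2% of all genes, and H3K27ac at 5, beside 63.2%. By state, H3K27me3 alone was found at 17.9% of all genes, the active marks without H3K27me3 at 44.7%, all 3 marks at 11.5% and H3K4me3 with H3K27me3 at 4.06%. None of the 10 had H3K27ac alone (2.95% of all genes), H3K4me3 alone (0.882%), H3K27ac with H3K27me3 (4.00%) or no mark (13.9%). With peaks of a −log10 q of 5 or more, H3K27me3 stood at 7 members beside 19.5% of genes, H3K27ac at 4 beside 55.1% and H3K4me3 at 6 beside 59.6%. Sox11 lost both H3K27 marks at that threshold. The Sox genes were short, with a median length of 5.16 kb against 17.2 kb over all genes, and a longer gene gives a peak more room.

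**Figure D1:**
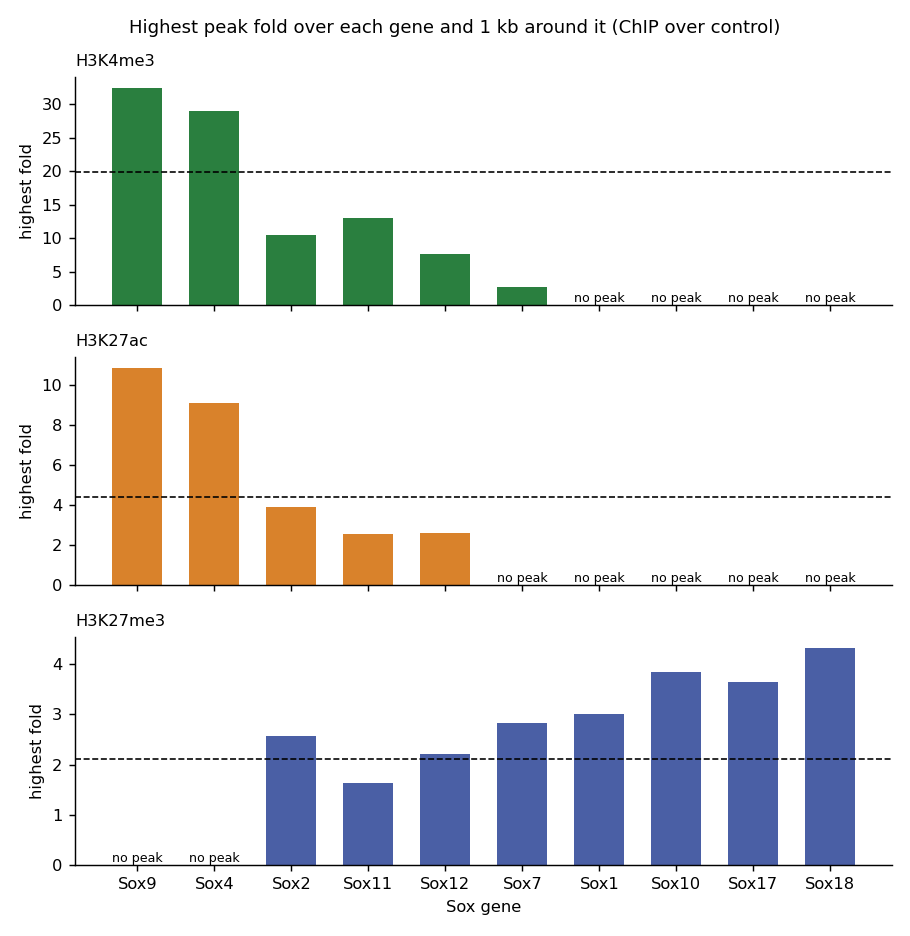
Bars show the authors' fold enrichment (ChIP over control) of the highest peak of each mark over each Sox gene and 1 kb around it, 1 value per gene from 1 list per antibody, with the dashed line at the median over all protein-coding genes that have such a peak. Sox9 and Sox4 stand above the line for H3K4me3 and H3K27ac and have no H3K27me3 peak, and the 4 genes on the right have H3K27me3 alone.

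Sox9 (gene 20682, chr11:112782210-112787757) had the highest H3K4me3 and H3K27ac folds of the 10 genes. Its H3K4me3 peak (chr11:112779961-112788226) spanned 8.27 kb at a fold of 32.4, and 99.7% of the H3K4me3 list was narrower. Its H3K27ac peak (chr11:112779268-112789334) spanned 10.1 kb at a fold of 10.8 and ranked 235 by fold among all H3K27ac peaks. Both peaks covered the whole gene, and H3K27ac covered the whole window. The nearest H3K27me3 peak lay 76.2 kb away.

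Sox4 (gene 20677, chr13:28948919-28953699), the group C gene often found in progenitors and tumours, looked much the same. Its H3K4me3 peak had a fold of 29.0 over 5.80 kb and its H3K27ac peak a fold of 9.08 over 7.48 kb, which ranked 640. No H3K27me3 peak lay within 1 Mb of Sox4, as for 2.11% of all protein-coding genes, and the nearest was 1056 kb away. The noncoding genes Gm46405 and Gm46406 also lie in this window, and the marks cannot be assigned between them and Sox4. Read against genes with a peak, whose median highest fold was 19.9 for H3K4me3 and 4.41 for H3K27ac, both Sox9 and Sox4 were high for both marks.

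The other group C genes carried the same active marks at lower folds together with H3K27me3. Sox11 (gene 20666, chr12:27334268-27342718) had an H3K4me3 peak of 5.36 kb at a fold of 13.0. Its 2 H3K27ac peaks had folds of 2.53 and 2.40, with a −log10 q of 4.69 and 4.11, and its 2 H3K27me3 peaks folds of 1.58 and 1.64, with a −log10 q of 1.32 and 1.62. These 2 H3K27me3 peaks covered 10.8% of the window and were among the weaker peaks of their list, where 7.45% and 23.5% of peaks had a lower fold. The H3K4me3 peak of Sox11 was thus the mark with a high −log10 q, at 174.7.

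Sox12 (gene 20667, chr2:152393611-152398046) had an H3K4me3 peak of 3.80 kb at a fold of 7.68 and 1 H3K27ac peak of 0.910 kb at a fold of 2.60. Its 2 H3K27me3 peaks lay on either side of the gene start (folds 2.01 and 2.21, widths 2.82 and 4.94 kb). Of the H3K27ac peak, 90.7% was also covered by H3K27me3, and 825 bp of the window carried all 3 marks. Highest H3K27ac folds within group C were therefore 9.08 at Sox4, 2.53 at Sox11 and 2.60 at Sox12, and the latter 2 lay below the median over genes with a peak.

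Sox2 (gene 20674, chr3:34649995-34652461) had the strongest H3K27ac among the 3 genes with all marks, at a fold of 3.91 over 6.28 kb and a −log10 q of 17.5. Its H3K4me3 peak had a fold of 10.5 over 6.02 kb. An H3K27me3 peak of 3.35 kb at a fold of 2.56 (chr3:34650590-34653938) lay wholly inside both. It began 0.595 kb after the start of the gene and ran 1.48 kb past its end, so that 2872 bp of the window carried all 3 marks. Sox2 lies inside the long noncoding gene Sox2ot, and the lists do not tell which of the genes a peak belongs to. A list made from many cells also cannot tell whether marks that overlap lay on the same chromosomes.

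The group F genes of endothelium and endoderm lacked H3K27ac in their windows. Sox18 (gene 20672, chr2:181669837-181671640) had the highest H3K27me3 fold of the 10 genes, 4.33 over 7.33 kb, which ranked 42 among 114660 peaks. Sox17 (gene 20671, chr1:4490928-4497426) lay in an H3K27me3 peak of 22.0 kb at a fold of 3.64. Sox7 (gene 20680, chr14:63943706-63950732) had 3 H3K27me3 peaks, the strongest of 7.83 kb at a fold of 2.82, and the weakest 0.800 kb past the gene at a fold of 1.58. It also had a small H3K4me3 peak of 0.743 kb at its lower-coordinate end, at a fold of 2.74, all of it inside the strongest H3K27me3 peak. That fold was low for H3K4me3, since 17.0% of that list was lower.

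Sox1 and Sox10 were the other genes with H3K27me3 alone. The H3K27me3 peak over Sox1 (gene 20664, chr8:12395519-12399555), 212 kb long, reached 37.3 kb before and 170 kb beyond the gene at a fold of 3.01. The noncoding gene Sox1ot overlaps Sox1. Sox10 (gene 20665, chr15:79154913-79164490) lay in a peak of 16.7 kb at a fold of 3.85, which ranked 135 and covered 85.8% of the window, leaving the lower-coordinate end of the gene bare. The 4 genes with H3K27me3 alone thus had folds from 3.01 to 4.33. The 4 genes that also carried H3K4me3 had folds from 1.64 to 2.82. Among the other Sox genes these folds overlapped between the states. Those with H3K27me3 alone had 2.08 at Sox3, 3.36 at Sox14 and 2.07 at Sox30. Those that also carried H3K4me3 ran from 2.03 at Sox5 to 2.93 at Sox6. The median over all genes with an H3K27me3 peak was 2.12.

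H3K4me3 peaks at the Sox genes described here were wide, except at Sox7. Of the 6 genes with a peak, the widths ran from 0.743 kb at Sox7 to 8.27 kb at Sox9, with a median of 5.58 kb against 2.25 kb over all genes with such a peak. Their highest folds had a median of 11.8 against 19.9 over all such genes, and only Sox4 and Sox9 were above it. Such width was not general in the family. At the other Sox genes with an H3K4me3 peak, the widest ran from 1.32 kb at Sox15 to 3.33 kb at Sox21. Of these, only Sox21 and Sox6 (3.005 kb) were above 2.25 kb.

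Sequence of the promoters was available for 5 of the 10 genes. The 250 bases before the RefSeq start are shown because the marks over them differ: H3K27me3 alone covered all of them at Sox1, H3K4me3 and H3K27ac all of them at Sox2, Sox4 and Sox11, and H3K4me3 alone at Sox12. They are from GRCm38.p6, 5′ to 3′ on the strand of the gene, and capitals mark E-boxes, the CANNTG hexamers that E proteins such as HEB bind. Sox1 is chr8:12395269-12395518 on the plus strand, Sox2 chr3:34649745-34649994 on the plus strand, Sox4 chr13:28953700-28953949 on the minus strand, Sox11 chr12:27342719-27342968 on the minus strand and Sox12 chr2:152398047-152398296 on the minus strand.
Sox1: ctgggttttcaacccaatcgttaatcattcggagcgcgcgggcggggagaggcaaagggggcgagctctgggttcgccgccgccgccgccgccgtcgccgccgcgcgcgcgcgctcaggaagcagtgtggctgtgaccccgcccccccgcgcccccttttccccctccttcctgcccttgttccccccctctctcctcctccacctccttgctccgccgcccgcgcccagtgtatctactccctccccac
Sox2: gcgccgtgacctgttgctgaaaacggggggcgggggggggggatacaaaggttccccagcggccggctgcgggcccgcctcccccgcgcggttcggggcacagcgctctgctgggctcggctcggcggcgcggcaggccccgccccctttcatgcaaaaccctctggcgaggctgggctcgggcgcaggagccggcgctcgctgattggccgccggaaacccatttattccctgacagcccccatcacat
Sox4: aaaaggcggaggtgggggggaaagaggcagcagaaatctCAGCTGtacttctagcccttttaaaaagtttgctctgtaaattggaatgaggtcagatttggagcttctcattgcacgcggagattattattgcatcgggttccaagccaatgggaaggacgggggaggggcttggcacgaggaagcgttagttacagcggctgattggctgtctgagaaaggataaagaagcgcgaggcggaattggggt
Sox11: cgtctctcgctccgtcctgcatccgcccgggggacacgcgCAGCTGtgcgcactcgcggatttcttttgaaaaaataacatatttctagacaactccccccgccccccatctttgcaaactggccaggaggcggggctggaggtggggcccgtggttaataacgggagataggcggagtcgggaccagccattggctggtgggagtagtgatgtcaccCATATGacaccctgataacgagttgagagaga
Sox12: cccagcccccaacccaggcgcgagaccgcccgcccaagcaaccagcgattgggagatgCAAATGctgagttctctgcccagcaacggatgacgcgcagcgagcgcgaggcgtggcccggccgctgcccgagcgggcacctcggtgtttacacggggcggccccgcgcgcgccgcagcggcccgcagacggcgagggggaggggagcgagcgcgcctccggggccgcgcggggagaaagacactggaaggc

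At Sox2, Sox11 and Sox12 these bases carried no H3K27me3, although each gene's window did. An E-box was found before the start of Sox4, Sox11 and Sox12, and 62.8% of 21263 promoters hold CANNTG in the same 250 bases. The form CAGCTG stood before Sox4, 211 bases from the start, and before Sox11, 210 bases from the start, and 12.1% of promoters hold it. Neither strand of the 5 sequences held CACCTG, which 16.9% of promoters hold, or ACAAT, which 25.1% hold. ACAAT is a form of the core that Sox proteins bind, and other forms were not searched. A match describes letters only, and no HEB site lay at these promoters. With CpG dinucleotides counted from 250 bases before to 50 after the start, the observed to expected ratio was 1.07 at Sox1, 0.819 at Sox2, 0.679 at Sox4, 0.817 at Sox11 and 1.07 at Sox12, against a median of 0.567 over the promoters. The GC content over the same bases ran from 52.0% at Sox4 to 76.7% at Sox12.

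H3K27ac within 100 kb was then described, since distal acetylated regions can act as enhancers. The 10 genes had 85 such peaks in all, counted once per gene, with 0 to 20 a gene and a median of 8.5 against 9 over all protein-coding genes. At least 1 peak was found at 9 of the 10, beside 87.3% of all genes, and Sox17 had none. Of the 85, 6 lay in a Sox window, 21 within 1 kb of the end of another protein-coding gene, 17 inside another gene and 41 between protein-coding genes. For 36 of them the nearest protein-coding gene end was that of the Sox gene.

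**Figure D2:**
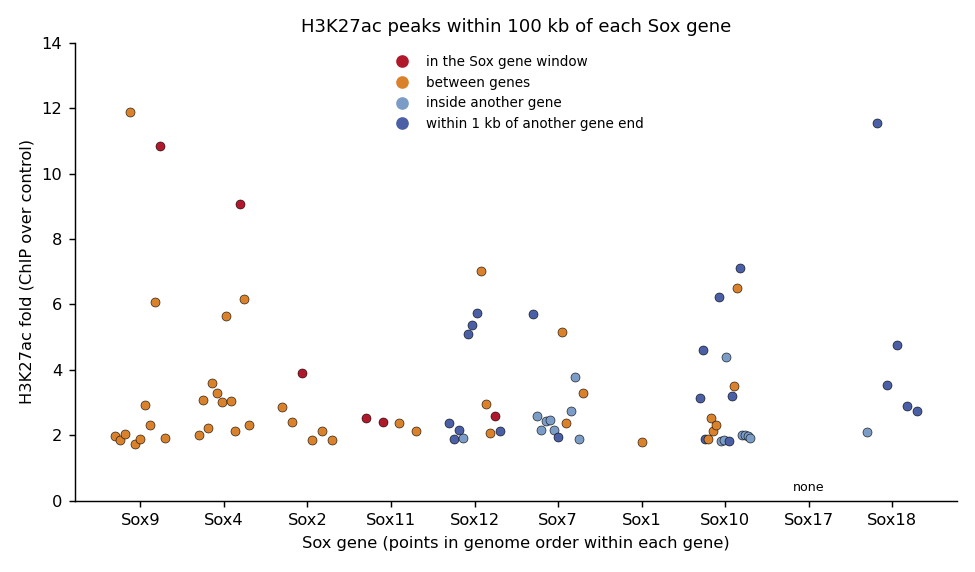
Each point is 1 H3K27ac peak within 100 kb of a Sox gene, plotted by the authors' fold enrichment (ChIP over control), in genome order within each gene and coloured by where it lies relative to protein-coding genes. Around Sox9 and Sox4 the points lie in the gene window or between genes, and at Sox18 the highest point, at a fold of 11.6, lies at the ends of other genes.

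Around Sox9, 11 H3K27ac peaks lay within 100 kb, with no other protein-coding gene in that span, and for all 11 the nearest gene end was that of Sox9. The highest by fold was not the one over the gene. A peak of 8.02 kb lay 68.7 kb away on the lower-coordinate side (chr11:112705511-112713533), with a fold of 11.9 that ranked 124 of 61496. It overlapped an H3K4me3 peak with a fold of 24.6 and the noncoding gene BC006965. Another of 2.84 kb lay 13.3 kb away at a fold of 6.06. The other 8 distal peaks had folds from 1.75 to 2.92. Of the 10 peaks outside the window, 9 lay on the lower-coordinate side.

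Around Sox4, 12 H3K27ac peaks lay within 100 kb, again with no other protein-coding gene in the span and Sox4 nearest for all 12. The strongest outside the window lay 4.36 kb away on the higher-coordinate side (1.49 kb, fold 6.16) and 29.1 kb away on the lower-coordinate side (4.16 kb, fold 5.66). Both overlapped noncoding genes, Gm46405 for the first and Gm40858 for the second. Both also overlapped H3K4me3 peaks, with a fold of 13.6 over 2.03 kb at the first. At the second the H3K4me3 peak was weak, with a fold of 2.03 over 0.478 kb. A peak 63.2 kb away, at a fold of 3.31, overlapped H3K4me3 with a fold of 15.2 within the noncoding gene 2610307P16Rik. None of these 12 peaks overlapped H3K27me3.

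Sox2 had 6 H3K27ac peaks in reach, of which 5 lay outside its window at folds from 1.85 to 2.86, and 5 of the 6 lay over Sox2ot. Sox11 had 4, with folds from 2.13 to 2.53, and Sox1 had 1, 90.5 kb away at a fold of 1.80 inside its H3K27me3 peak. No protein-coding gene other than the Sox gene stood within 100 kb at any of these genes. The nearest H3K27ac peak to Sox17 was 161 kb away.

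Sox10, Sox12, Sox7 and Sox18 had neighbours, and by number most H3K27ac peaks there lay on them. Sox10 had the largest number of H3K27ac peaks of the 10 genes, 20, but 14 lay at the ends of or inside neighbours such as Micall1, Eif3l and Pick1. For 2 of the 20 the nearest gene end was that of Sox10, one 12.1 kb away with a fold of 3.52 and one 27.025 kb away with a fold of 6.49 (chr15:79191515-79194402). The second of these overlapped an H3K27me3 peak. Sox12 had 12 peaks, of which 7 lay at the ends of neighbours such as Rbck1 and Trib3, and 1 was nearest to Sox12. Sox7 had 13 and Sox18 had 6, and for none was the nearest gene end that of the Sox gene. Some strong peaks lay between genes. These included the highest around Sox12 (fold 7.03, 42.4 kb away) and the closest to Sox7 (fold 5.17, 10.7 kb away). The peak with a fold of 11.6 near Sox18 lay 87.2 kb away at the ends of Uckl1 and Zfp512b.

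**Figure D3:**
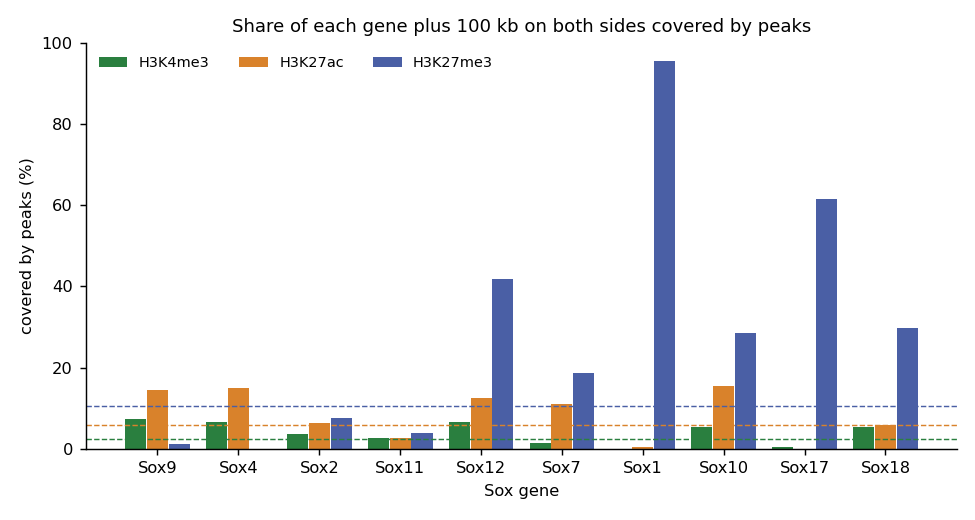
Bars give the percent of each gene and 100 kb on both sides that peaks of each mark cover, and dashed lines give the median over all protein-coding genes in the same colour. H3K27me3 covers 95.5% of the span at Sox1 and 61.4% at Sox17, and 0% at Sox4.

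By coverage of the gene and 100 kb on both sides, H3K27me3 took 95.5% at Sox1, 61.4% at Sox17, 41.9% at Sox12, 29.9% at Sox18 and 28.4% at Sox10, against a median of 10.6% over all protein-coding genes. It took 18.8% at Sox7, 7.55% at Sox2, 3.81% at Sox11, 1.23% at Sox9 and 0% at Sox4. H3K27ac took 15.5% at Sox10, 15.0% at Sox4, 14.5% at Sox9, 12.5% at Sox12 and 11.1% at Sox7, against a median of 5.97%. It took 6.26% at Sox2, 5.90% at Sox18, 2.59% at Sox11, 0.379% at Sox1 and 0% at Sox17. Sox10 was therefore as widely surrounded by H3K27ac as Sox4 and Sox9, with none in its own window. Sox7 also had none in its own window.

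HEB sites were absent within 100 kb of all 10 genes. A site lay within that distance of 12.0% of all protein-coding genes, so that 0 of 10 is no result about these genes, and longer genes have more room for a site. The nearest site to any of the genes was 126 kb from Sox10, in the linker histone gene H1f0 and in an H3K27ac peak with a fold of 3.69. The next nearest was 172 kb from Sox18, in Tpd52l2 and in an H3K27ac peak with a fold of 8.81. Around Sox10, 2 further sites lay within 200 kb, 159 and 166 kb away, in H3K27ac peaks of 9.40 and 8.71 kb.

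From Sox9 the nearest HEB site was 332 kb away on the lower-coordinate side (chr11:112450385-112450683), outside any H3K27ac peak, and from Sox4 it was 3.46 Mb away. The nearest sites to Sox12, Sox7 and Sox1 were 413, 811 and 983 kb away, those to Sox2 and Sox11 1.88 and 2.14 Mb, and that to Sox17 8.13 Mb. The median over the 10 genes was 897 kb, against 839 kb over all protein-coding genes. Of the 20 Sox genes, 1 had a site within 100 kb, beside 12.0% of all protein-coding genes, which is no result about the family. That gene was Sox5, with the site inside it in an H3K27ac peak with a fold of 3.30.

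**Figure D4:**
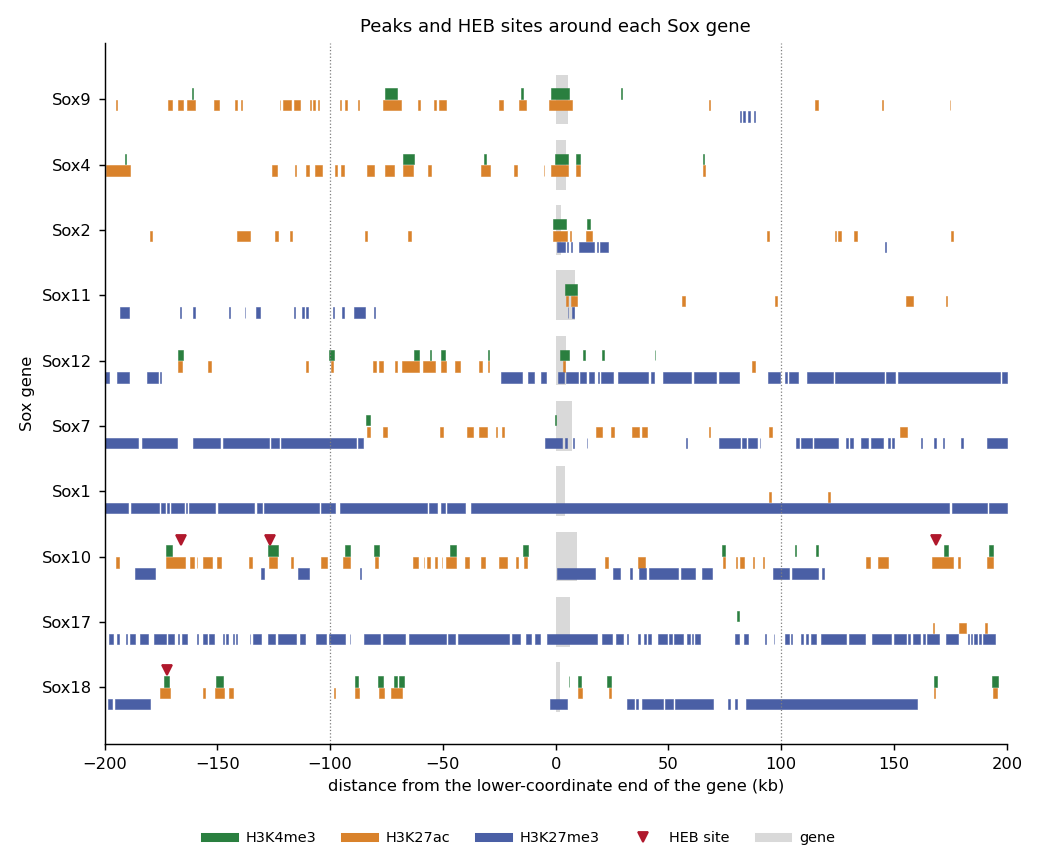
Each row shows the peaks of the 3 marks (bars) and HEB sites (triangles) within 200 kb of a Sox gene (grey), by distance in kb from the lower-coordinate end of the gene, with dotted lines at 100 kb. Triangles appear only around Sox10 and Sox18, beyond the dotted lines, and long H3K27me3 bars lie over Sox1 and Sox17.

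The rest of the family was described from a list of Sox genes by group. Of the 10 others, H3K27me3 was present at 8, H3K4me3 at 6 and H3K27ac at 4, beside 37.5%, 61.2% and 63.2% of all protein-coding genes. Sox3 (B1), Sox14 (B2) and Sox30 (H) had H3K27me3 alone, with the widest peak, 42.4 kb, at Sox14. Sox3 is on the X chromosome, which held 16613 of the 114660 H3K27me3 peaks. Sox21 (B2), Sox5 and Sox6 (both D) had all 3 marks somewhere in their windows. Sox5 and Sox6 are long genes (953863 and 569905 bp), and H3K27me3 covered 0.646% of the window of Sox5 and 25.1% of that of Sox6. Sox8 (E) and Sox13 (D) had H3K4me3 with H3K27me3. Sox15 (G) had H3K27ac at a fold of 5.12 over a peak of 7.73 kb with a weak H3K4me3 peak at a fold of 1.96 and no H3K27me3. Sry (A) had no mark, but it is on the Y chromosome, which held 11 H3K4me3, 14 H3K27ac and 2 H3K27me3 peaks in all. The lists cannot tell an unmarked gene there from one that was not read. By group, all 3 group F genes had H3K27me3 and none had H3K27ac, all 3 group C genes had H3K4me3 and H3K27ac, and all 5 group B genes had H3K27me3. In group E, Sox9 alone lacked H3K27me3.

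**Figure D5:**
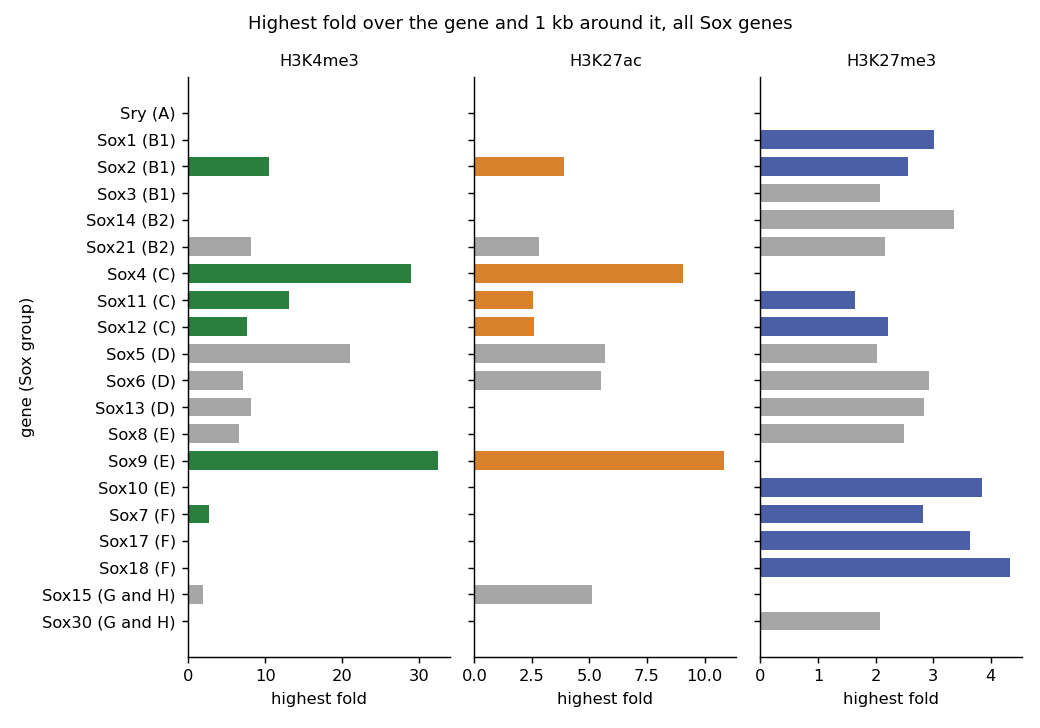
Bars give the highest authors' fold (ChIP over control) of each mark over each of the 20 Sox genes and 1 kb around it, with the 10 genes described here in colour, the other 10 in grey, and the Sox group in brackets. No bar stands for H3K27ac in group F (Sox7, Sox17, Sox18), and Sox9 and Sox4 have the longest H3K27ac and H3K4me3 bars.

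Genes known to act with these Sox factors were counted in 6 lists. In the endoderm list H3K27me3 lay at 8 of 8 genes, with the widest peak at Foxa2 (93.9 kb) and then at Gata4 (51.2 kb), and H3K27ac at 1. In the endothelial list H3K27me3 lay at 9 of 10, among them Fli1 (53.5 kb) and Erg (48.0 kb), and H3K27ac at 4, with the highest fold, 7.18, at Pecam1. In the neural progenitor list H3K27me3 lay at 8 of 10, widest at Zic2 (56.2 kb) and Pax6 (52.2 kb), and H3K27ac at 2. Of the Sox genes named above for these lineages, Sox1, Sox7, Sox17 and Sox18 carried H3K27me3 without H3K27ac. Sox2 carried H3K27me3 and also H3K27ac at a fold of 3.91. Group C, given above for many progenitor tissues, was not counted with them. All 3 of its genes carried H3K27ac, and Sox4 among them had no H3K27me3.

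In the cartilage list H3K27me3 lay at 6 of 8 genes, widest at Col9a1 (20.3 kb) and Matn1 (19.8 kb). H3K27ac lay at 3 of the 8, Col9a1 at a fold of 3.08, Comp at 2.32 and Matn3 at 2.18, against 10.8 at Sox9. In the neural crest and glial list H3K27ac lay at 7 of 10, widest at Ets1 (30.2 kb) and Tfap2a (19.8 kb), and H3K27me3 at 6. Erbb3, known as a target of Sox10 in glia, carried H3K4me3 and H3K27ac as well as H3K27me3. In the pluripotency list each of the 3 marks lay at 3 of 6, and Pou5f1 and Nanog, partners of Sox2, had no mark. Over the 52 genes of the 6 lists H3K27me3 lay at 40 (76.9%), H3K4me3 at 29 and H3K27ac at 20 (38.5%), beside the 37.5%, 61.2% and 63.2% of all genes. An HEB site lay within 100 kb of 3 of the 52, beside 12.0% of all genes.

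The protein-coding genes most like each Sox gene were found by distance over 6 readouts, the highest fold and the covered length of each of the 3 marks in the window, on a log scale and in units of their SD over all genes. Nearest to Sox9 were Ddx5, Hnrnpa2b1 and Irx1, and nearest to Sox4 were Ube2d3, Eef1a1 and Hsp90b1. Nearest to Sox17 were the homeobox genes Vax1, Barhl2 and En2, nearest to Sox18 were Hes5, Hoxc12 and Hoxc11, and nearest to Sox10 were Plk5, Tlx1 and Evx2. Nearest to Sox1 were Erich5, Lefty2 and Cckbr, and nearest to Sox7 were Clec2l, Gpx7 and Ybx2. Sox2 was nearest to Map3k9, Lmtk3 and Ltbp4, Sox11 to Add3, Pcdh9 and Mpp2, and Sox12 to Shisa2, Rspo3 and Sox21. Among the 10 genes themselves, Sox4 and Sox9 were nearest to each other, at a distance of 0.210, and Sox10 and Sox17 at 0.0852.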

How the data were processed

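The authors deposited a single peak list for each antibody. The build is mm10, and SAMtools was among the tools, per the submitters' processing notes. Aligner, caller, control and the joining of replicates were not given in the sources used here, except that the deposited name of the HEB list describes a consensus with a minimum overlap of 2. Per the layout of the deposited files, each histone peak has a fold enrichment, a −log10 q-value and a deposited score. The fold was read as a ratio of ChIP over control. The score is 10 times the −log10 q and was not used further.

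From these lists peaks were matched to RefSeq genes (GRCm38.p6) with Python 3.11.15 and pandas 2.3.3, at an overlap of 1 bp or more. The overlap code was tested on simulated spans. Strand was known only for genes in the RefSeq promoter table, which held 5 of the 10 Sox genes. A planned comparison of the Sox proteins was not run, as no protein sequence was used here.

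The members and the gene lists were chosen with earlier results of these data known. The text names all 10 members, the other Sox genes, listed companion genes by widest peak with others named after their values were seen, and the 3 genes with the smallest Euclidean distance. No test was made, since no value per replicate was at hand. Alternatives changed the window, peak threshold, overlap and distance.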

Additional observations from a re-analysis of the deposited data

How the results depend on the processing

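Alternatives that made the window narrower or wider or kept only the gene ends, raised the overlap to 200 bp or the −log10 q to 5 left the number of Sox genes with each mark within 1.5 times its value. With peaks at or above the median fold, H3K4me3 stood at 3 Sox genes and not 6, as Sox2, Sox7 and Sox12 were below it, and at 43.8% of all genes and not 61.2%. Summed over the 10 genes, the 85 H3K27ac peaks within 100 kb became 39 within 50 kb, 149 within 200 kb, 40 at a −log10 q of 5 or more, 45 at or above the median fold and 36 with the Sox gene end nearest. HEB sites lay near 2 genes within 200 kb (19.8% of all genes). The count was 0 within 50 kb, by midpoint, or in H3K27ac peaks only. Those settings could give no other count once no site lay within 100 kb. Of the motifs, the count changed for CANNTG alone, from 4 of 5 promoters to 3 without the 50 bases after the start. Read depth is unknown, and weak peaks such as those of H3K27me3 at Sox11 are near the limit of their list. No replicate could be left out, and no paired analysis was possible because each list combines its replicates and carries no column per sample.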

Other observations

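Peaks near Sox9 had a higher −log10 q than peaks of the same list with a like fold. For each peak the −log10 q was divided by the median of 200 peaks of the nearest fold. Within 1 Mb of Sox9 this ratio had a median of 1.52 over 121 H3K27ac peaks, of which 118 were above 1, and of 1.39 over 16 H3K4me3 peaks, of which 15 were above 1. Around the other 9 genes the medians ran from 0.981 to 1.03 for H3K27ac and from 0.946 to 1.01 for H3K4me3. For H3K27me3 the median near Sox9 was 1.12 over 9 peaks, of which 6 were above 1. Along chromosome 11 in bins of 1 Mb, the H3K27ac ratio was 0.994 at 108 Mb, 1.12 at 109 Mb and 1.31 at 110 Mb. It was 1.32 at 111 Mb, 1.66 at 112 Mb, which holds Sox9, 1.34 at 113 Mb and 1.07 at 114 Mb. From 115 to 119 Mb it ran from 1.22 to 1.28, and it was 1.64 at 120 Mb and 1.38 at 121 Mb. The rise thus extended beyond the bin of Sox9. Bins at 1.3 or more were 10 of the 1778 with at least 10 H3K27ac peaks. Those at 110 to 113, 120 and 121 Mb of chromosome 11 were among them. Whether this bears on the folds at Sox9 was not tested.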
